A study of Homo sapiens with 12 samples.

Results

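The RNAs described here are 10 long noncoding RNAs chosen by name: the nuclear RNAs MALAT1 and NEAT1, and 8 host RNAs of small nucleolar RNAs (snoRNAs), SNHG1, SNHG5, SNHG6, SNHG8, SNHG12, SNHG16, GAS5 and ZFAS1. They are 10 of the 33331 genes listed in either deposited table, and all 10 are among the 26814 genes listed in both. The names were picked with earlier results of these data known, so their values are a description and are no evidence about the list as a whole. All 10 passed the filter on low counts in every comparison.

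Polyadenylated RNA was sequenced from 12 cultures of SW480, a line from a human colorectal adenocarcinoma, which form 4 groups of 3 libraries. A single ALDH1B1 knockout clone carried EGFP, a fluorescent protein, in the first group and ALDH1B1, a mitochondrial aldehyde dehydrogenase, in the second. The parental line received 2 µM of an ALDH1B1-selective inhibitor in the third group and DMSO, the solvent, in the fourth, each for 24 h. The sources used here give neither the promoter of the constructs nor the edited bases of the clone. The p-values measure the spread between cultures of 1 clone and 1 parental line. Clone and line differ in origin and in the construct carried as well as in ALDH1B1, which cannot be told apart in any contrast between them. The sample records used here give no DMSO and no treatment time for the clone groups, so exposure to DMSO may differ there too.

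MALAT1 is kept in the nucleus, where it gathers at nuclear speckles, the compartments rich in splicing factors. NEAT1 is the scaffold of paraspeckles, and its long form is needed to build them, whereas its short form is polyadenylated in the usual way. The long forms of both RNAs are cut at the 3′ end by RNase P and protected by a triple helix in place of a poly(A) tail. The snoRNA hosts carry their cargo in introns: the excised intron is trimmed to a snoRNA that guides chemical modification of ribosomal or other RNA, while the spliced host RNA is exported and in many cases destroyed by nonsense-mediated decay when ribosomes meet its early stop codons. Many hosts start with a pyrimidine tract of the kind found on ribosomal protein mRNAs.

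The starts of 5 host RNAs are shown because start type is a feature the choice of names did not use. Each run holds 20 bases before the start annotated by RefSeq (GRCh38.p14) and 30 bases from it, 5′ to 3′ on the RNA's strand, and the capitals mark the C at the start with the pyrimidines that follow it without a break.
SNHG12: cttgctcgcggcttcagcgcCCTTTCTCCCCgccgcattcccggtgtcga
SNHG5: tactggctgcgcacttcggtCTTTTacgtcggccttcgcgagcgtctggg
ZFAS1: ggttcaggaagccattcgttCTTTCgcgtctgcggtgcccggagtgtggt
SNHG1: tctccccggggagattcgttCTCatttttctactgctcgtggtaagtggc
SNHG8: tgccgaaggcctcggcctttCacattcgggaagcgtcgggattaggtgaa
They lie at chr1:28581844-28581893, chr6:85678704-85678753, chr20:49278622-49278671, chr11:62855856-62855905 and chr4:118278742-118278791, in the order printed. The tract was 11 nt in SNHG12, 5 nt in SNHG5 and in ZFAS1, 3 nt in SNHG1 and 1 nt in SNHG8. Of the 35116 promoters in the same RefSeq table, 1429 (4.07%) had a tract of at least 5 nt. At the RefSeq starts of SNHG16 and GAS5 the first base was not C, so the tract there was 0 nt; that start of GAS5 lies outside the span of the gene in the annotation used for counts. A start that is off by a few bases changes such a count, and a match describes the letters only.

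The 3′ ends of the nuclear RNAs are shown because oligo(dT) selection acts at the 3′ end. The first run is the 100 bases of MALAT1 before its tRNA-like small RNA (chr11:65506017-65506116, GRCh38, plus strand) and the second is the last 100 bases of the long form of NEAT1 (chr11:65445441-65445540, plus strand), with the longest stretch common to both in capitals. The third is the last 60 bases of a short form of NEAT1 (chr11:65426454-65426513, plus strand), with the polyadenylation signal in capitals.
MALAT1: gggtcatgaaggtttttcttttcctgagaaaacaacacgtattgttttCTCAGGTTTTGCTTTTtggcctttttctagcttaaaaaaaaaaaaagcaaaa
NEAT1 long form: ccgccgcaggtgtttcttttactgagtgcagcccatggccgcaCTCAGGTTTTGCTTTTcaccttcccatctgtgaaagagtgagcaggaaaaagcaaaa
NEAT1 short form: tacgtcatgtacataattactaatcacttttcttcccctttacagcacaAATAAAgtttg
The common stretch was 16 nt long. The longest run of A was 13 nt at the MALAT1 end and 5 nt at the end of long NEAT1. The letters AATAAA, searched on the RNA's strand, had 1 match in the short form and none in the long ends. The deposited counts join all forms of a gene, so the forms of NEAT1 were not separated.

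ALDH1B1 itself was measured first as a check of the labels. It averaged 18.4 ± 0.44 CPM (read counts scaled to library size) in the EGFP clone and 100.7 ± 3.2 CPM in the ALDH1B1 clone (SD, n = 3 each), and 50.4 ± 0.53 CPM with inhibitor and 49.5 ± 3.8 CPM with DMSO (SD, n = 3 each). Libraries held 32617089 to 39018926 counted reads, and every pair of replicates differed by more than sampling noise, with chi-square per degree of freedom between 3.01 and 14.5. EGFP replicate 3 (9.85 and 14.5 against its group, with the other pair at 3.77) and DMSO replicate 2 (9.54 and 6.47, with the others at 3.50) stood apart.

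Cell type markers did not all follow the label of a colon epithelial line in the clone. The epithelial keratin gene KRT8 was at 3721, 4398, 3876 and 3590 CPM in the EGFP clone, the ALDH1B1 clone, the inhibitor group and the DMSO group. EPCAM, an epithelial adhesion gene, averaged 122 CPM in the EGFP clone and 135 CPM in the ALDH1B1 clone, against 767 CPM in DMSO. The E-cadherin gene CDH1 averaged 5.65 and 4.89 CPM in the EGFP and ALDH1B1 clones, against 38.9 CPM in DMSO, and the brush border gene VIL1 averaged 0.47 and 0.15 CPM, against 344 CPM in DMSO. Other markers of the list went the opposite way. CDX2, an intestinal transcription factor gene, averaged 61.2 CPM in the EGFP clone and 49.9 CPM in the ALDH1B1 clone, against 25.2 CPM in DMSO. The keratin gene KRT18 averaged 2182 and 2451 CPM, against 2012 CPM in DMSO. Of 6 epithelial markers tested, 3 were lower and 2 higher in the EGFP clone than in DMSO, and 3 were lower and 3 higher in the ALDH1B1 clone. The higher ones were CDX2 and KRT18 in both clone groups and KRT8 in the ALDH1B1 clone.

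Of 3 fibroblast markers tested, COL1A1, COL1A2 and PDGFRB, all were higher in both clone groups than in DMSO. The fibroblast marker LUM was listed for the parental line only, so the clone contrasts and the sums below leave it out. PDGFRB, a growth factor receptor gene, averaged 11.5 CPM in the EGFP clone and 6.12 CPM in the ALDH1B1 clone, against 1.00 CPM in DMSO. In the knockout comparison 2 of the 3 were higher, PDGFRB (log2 fold change 0.93, SE 0.12, adjusted p = 1.2e-04) and COL1A2, a collagen gene at 0.58 CPM with EGFP and 0.23 CPM with ALDH1B1 (adjusted p = 0.041). The 5 fibroblast markers listed in both tables summed to 26.1 to 27.9 CPM in the EGFP clone and 21.1 to 22.2 CPM in the ALDH1B1 clone, against 5.12 to 6.09 CPM in DMSO, while COL3A1 and DCN stayed under 0.1 CPM in every group mean. With inhibitor the 3 tested were COL1A1, PDGFRB and LUM, at log2 fold changes of -0.36, 0.18 and 0.22. None passed in edgeR, with 1 at an unadjusted p under 0.05. DESeq2 called neither of the 2 to which it gave an adjusted p. Both leukocyte markers listed in both tables, CD3E and CD68, stayed under 0.1 CPM in every group mean. The endothelial markers PECAM1 and VWF summed to at most 1.47 CPM in any library.

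Per kilobase of summed exon, SNHG5 led in the clone and SNHG8 in the parental line. In the EGFP clone the order of mean CPM per kb was SNHG5 (71.8), GAS5 (55.0), SNHG6 (35.4) and SNHG8 (26.9), then SNHG1, NEAT1, ZFAS1 and MALAT1 between 17.4 and 19.1, and last SNHG16 (7.48) and SNHG12 (2.84). In that group SNHG1 overlapped NEAT1 over the libraries, NEAT1 overlapped ZFAS1 and ZFAS1 overlapped MALAT1, while the other neighbours in the order were apart. The ALDH1B1 clone had the same first 5 RNAs, with SNHG5 at 85.6 and GAS5 at 56.7 CPM per kb. With inhibitor SNHG8 (116), SNHG1 (94.4) and SNHG5 (93.1) led, and SNHG12 (7.41) was last. In DMSO the order was SNHG8 (137), SNHG1 (114), SNHG5 (109), SNHG6 (68.3), GAS5 (56.3), ZFAS1 (48.6), MALAT1 (15.1), NEAT1 (13.6), SNHG16 (11.1) and SNHG12 (9.90). SNHG1 and SNHG5 overlapped over the DMSO libraries, as did MALAT1 with NEAT1 and NEAT1 with SNHG16. These values divide by all annotated exons of a gene, so a gene with many alternative exons is understated. NEAT1 was divided by 22767 nt, although its short form shown above has 2994 nt. Its value per kb is understated where reads come from short forms. Since the forms were not separated, the place of NEAT1 in these orders is uncertain.

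**Figure D1:**
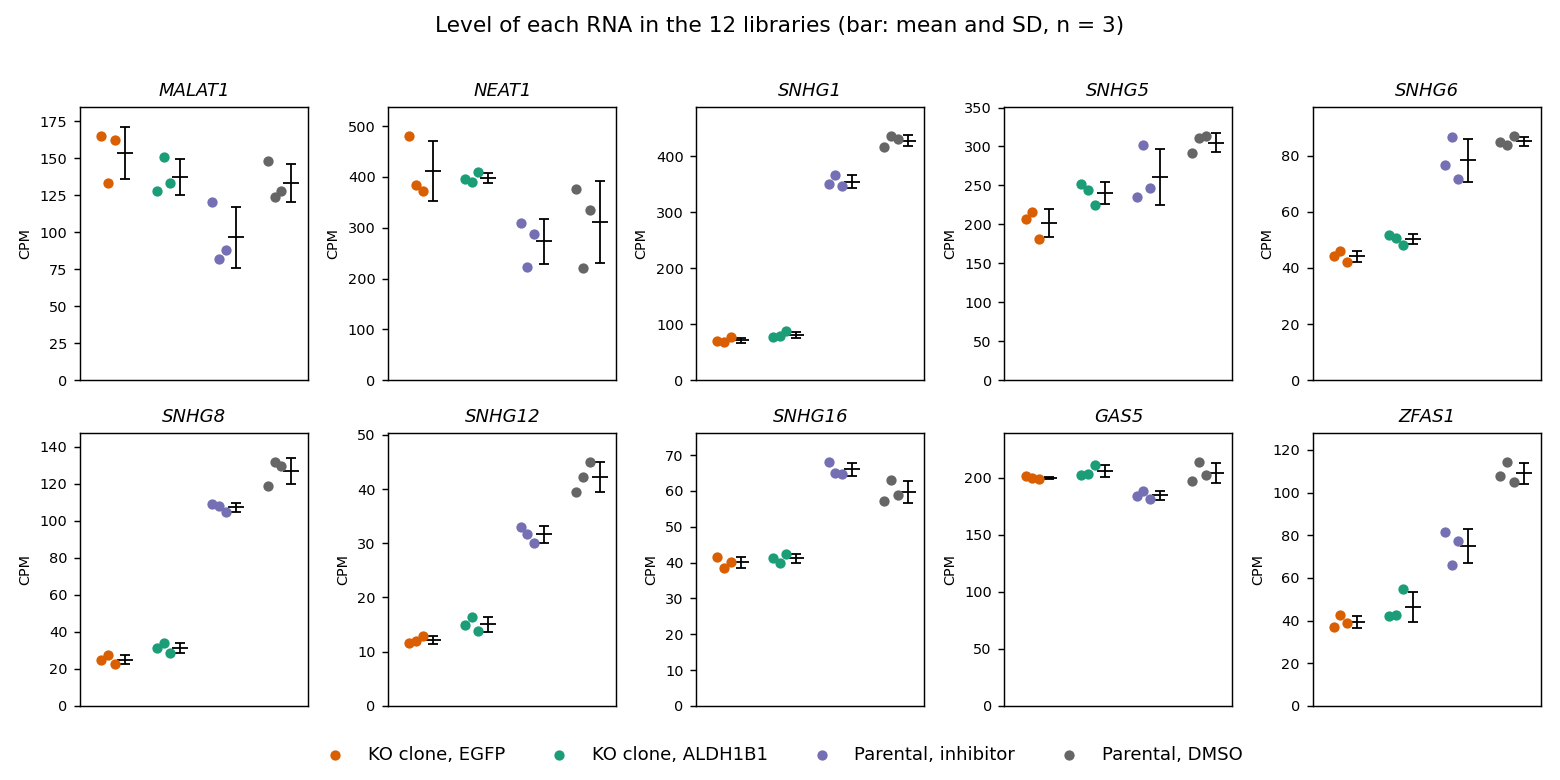
Level of each of the 10 RNAs, in CPM on a linear axis from 0, with 1 point per library, in the EGFP clone, the ALDH1B1 clone, the parental line with inhibitor and the parental line with DMSO, left to right; bars give mean and SD (n = 3). SNHG1, SNHG8 and SNHG12 sit far lower in both clone groups than in DMSO, while GAS5 lies between 181 and 214 CPM in all 12 libraries.

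In the knockout comparison, which asks what differs in the clone without restored ALDH1B1, 4 host RNAs were lower in EGFP than in ALDH1B1 libraries and the other 6 RNAs did not pass. SNHG8, SNHG12, SNHG5 and SNHG6 passed (edgeR quasi-likelihood test, Benjamini-Hochberg adjusted p under 0.05 over 17404 genes). Of all genes tested, 9.22% were called lower and 8.36% higher. The median log2 fold change of the 10 RNAs was -0.17 and that of the 8 hosts was -0.20, against 0.01 for all genes. Without an adjustment, 7 of the 10 had p under 0.05. The share of all genes at that unadjusted level was not computed, and the shares above are for adjusted p. PDGFRB and COL1A2 were higher in the same EGFP libraries, and the part of such markers in these results was not tested.

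SNHG8, host of an H/ACA snoRNA, had 24.7, 27.3 and 22.5 CPM in EGFP libraries, against 31.0, 33.8 and 28.7 CPM in ALDH1B1 libraries. Every EGFP library was below every ALDH1B1 library, with a log2 fold change of -0.32 (SE 0.08, adjusted p = 0.012). SNHG12, which holds mostly H/ACA snoRNAs, had 11.5, 11.97 and 12.9 CPM with EGFP, against 14.9, 16.4 and 13.7 CPM with ALDH1B1. Its groups did not overlap either, and the log2 fold change was -0.30 (SE 0.09, adjusted p = 0.026).

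SNHG5, host of the SNORD50 pair, had 207, 216 and 181 CPM in EGFP libraries, against 252, 244 and 225 CPM in ALDH1B1 libraries. The lowest was EGFP replicate 3, the library that stands apart, and the groups did not overlap (log2 fold change -0.24, SE 0.06, adjusted p = 0.013). SNHG6, host of SNORD87, had 44.2, 45.9 and 42.1 CPM with EGFP, against 51.7, 50.6 and 48.3 CPM with ALDH1B1. All 3 EGFP libraries were lower (log2 fold change -0.18, SE 0.05, adjusted p = 0.035).

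SNHG1, host of a row of C/D box snoRNAs, had 69.7, 68.8 and 76.9 CPM with EGFP, against 76.7, 79.2 and 87.5 CPM with ALDH1B1, and the groups overlapped by 1 library. Its log2 fold change of -0.17 (SE 0.06, adjusted p = 0.073) did not pass, although 6 of 12 alternatives called it lower, among them DESeq2 (-0.18, adjusted p = 0.048) and the fit without EGFP replicate 3 (-0.22, adjusted p = 0.0041). ZFAS1, host of the SNORD12 group, had 37.1, 42.6 and 38.9 CPM with EGFP, against 42.0, 42.8 and 54.6 CPM with ALDH1B1. ALDH1B1 replicate 3 was the high one, and the log2 fold change was -0.22 (SE 0.09, adjusted p = 0.099). Without that library it was -0.09 (adjusted p = 0.42). Over 12 alternatives it ran between -0.30 and -0.09, and 2 of them called it lower. SNHG16 and GAS5 had log2 fold changes of -0.03 each (SE 0.06 and 0.04, adjusted p = 0.78 and 0.66). The GAS5 groups did not overlap either, with at most 201.2 CPM with EGFP and at least 202.2 CPM with ALDH1B1. The share of all genes whose groups were apart was not computed for any comparison.

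MALAT1 had 165, 133 and 162 CPM in EGFP libraries, against 128, 151 and 134 CPM in ALDH1B1 libraries. The groups overlapped, with EGFP replicate 2 low, and the log2 fold change of 0.17 (SE 0.08, adjusted p = 0.14) did not pass. Without EGFP replicate 2 it was 0.26 and passed (adjusted p = 0.0093), and over 12 alternatives it ran between 0.09 and 0.26. NEAT1 had 479.8, 384 and 371 CPM with EGFP, against 395, 391 and 409 CPM with ALDH1B1. One EGFP library was high and the other EGFP libraries lay below all 3 ALDH1B1 libraries (log2 fold change 0.06, SE 0.07, adjusted p = 0.63).

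The 4 calls rest on few libraries. Without ALDH1B1 replicate 2 none passed in edgeR. In that fit 7 of the 10 had unadjusted p under 0.05, and the share of all genes at that level was not computed. Without ALDH1B1 replicate 1 or EGFP replicate 1 there were 1 and 2 calls. Of 12 alternatives, SNHG12 and SNHG6 lost the call in 4 each, SNHG5 in 2 and SNHG8 in 1. Without any filter on low counts, 6 of the RNAs were called lower and 1 higher, MALAT1.

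**Figure D2:**
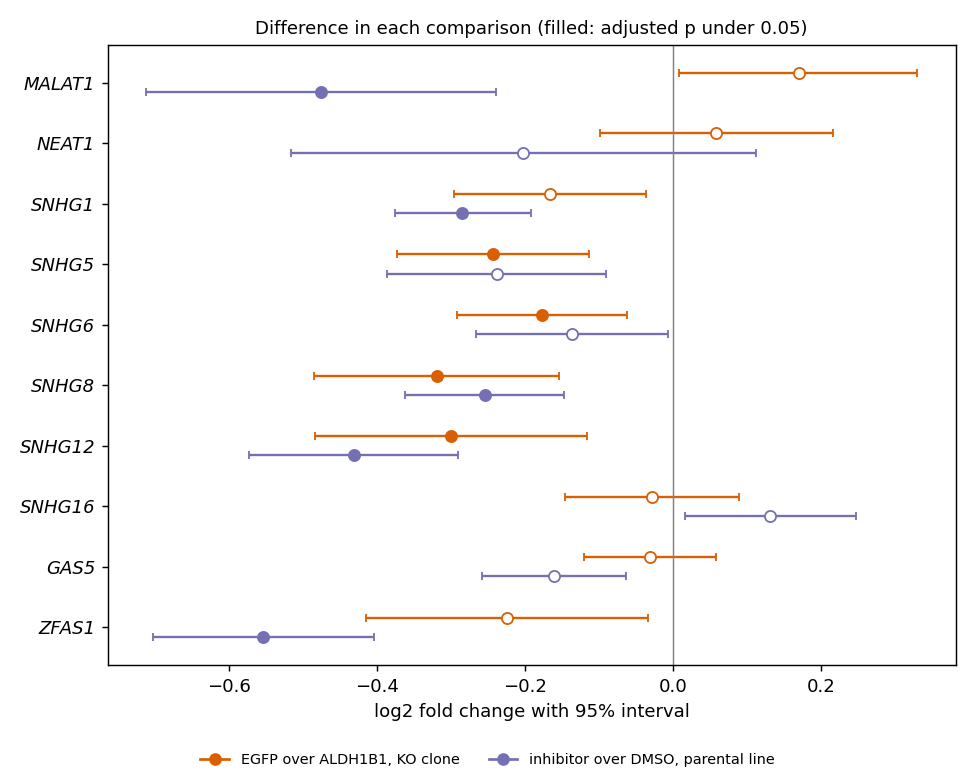
Log2 fold change with its 95% interval for each of the 10 RNAs, EGFP over ALDH1B1 in the knockout clone (orange) and inhibitor over DMSO in the parental line (purple); filled points have an adjusted p under 0.05. SNHG8 and SNHG12 are filled in both, and MALAT1 lies at 0.17 in the knockout comparison and at -0.48 in the inhibitor comparison.

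In the inhibitor comparison, which asks what 24 h of inhibitor changes in the parental line, 4 host RNAs and MALAT1 were lower with inhibitor than with DMSO and the other 5 RNAs did not pass. ZFAS1, MALAT1, SNHG12, SNHG1 and SNHG8 passed (edgeR, adjusted p under 0.05 over 17848 genes). Of all genes tested, 2.1% were called lower and 1.89% higher. The median log2 fold change was -0.25 for the 10 RNAs and for the 8 hosts, against -0.00 for all genes. Without an adjustment, 9 of the 10 had p under 0.05. The share of all genes at that unadjusted level was not computed here either, and the shares above are for adjusted p.

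ZFAS1 had 81.6, 65.9 and 77.4 CPM with inhibitor, against 108, 114 and 105 CPM with DMSO. Every inhibitor library was below every DMSO library, and the log2 fold change was -0.55 (SE 0.07, adjusted p = 6.7e-04). SNHG12 had 33.1, 31.8 and 30.02 CPM with inhibitor, against 39.4, 42.3 and 45.0 CPM with DMSO. Its groups were apart as well (log2 fold change -0.43, SE 0.07, adjusted p = 0.0024).

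SNHG1 had 350.1, 367 and 346 CPM with inhibitor, against 417, 436 and 430.1 CPM with DMSO. The spread within each group was small beside the gap between them (log2 fold change -0.28, SE 0.04, adjusted p = 0.0022). SNHG8 had 109, 108 and 105 CPM with inhibitor, against 119, 132 and 129.7 CPM with DMSO. Its log2 fold change was -0.25 (SE 0.05, adjusted p = 0.012), and it lost its call in 4 of 12 alternatives. Among these were the fits with the trend over transcript length and GC content removed (-0.15, adjusted p = 0.11), without DMSO replicate 3 (-0.24, adjusted p = 0.10) and without inhibitor replicate 3 (-0.24, adjusted p = 0.082).

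MALAT1 had 120.2, 81.9 and 88.0 CPM with inhibitor, against 148, 124 and 128 CPM with DMSO. The groups did not overlap, though the highest inhibitor library came close to the lowest DMSO one (log2 fold change -0.48, SE 0.11, adjusted p = 0.028). This call was lost in 4 of 12 alternatives, among them DESeq2 (-0.48, adjusted p = 0.13) and the fits without the inhibitor library that has no number (-0.36, adjusted p = 0.085), without inhibitor replicate 3 (-0.41, adjusted p = 0.12) and without DMSO replicate 3 (-0.50, adjusted p = 0.079). In the authors' deposited table MALAT1 had an adjusted p of 0.13.

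SNHG5 had 235, 302 and 247 CPM with inhibitor, against 291, 311 and 313 CPM with DMSO. One inhibitor library lay inside the DMSO range, and the log2 fold change of -0.24 (SE 0.07, adjusted p = 0.067) did not pass. It was called lower in 4 of 12 alternatives, among them DESeq2 (-0.24, adjusted p = 0.026) and the fit without the unnumbered inhibitor library (-0.35, adjusted p = 0.0035). GAS5 had 184, 189 and 181 CPM with inhibitor, against 197, 214 and 202 CPM with DMSO. Its groups were apart, yet its log2 fold change of -0.16 (SE 0.05, adjusted p = 0.061) did not pass, and 1 of 12 alternatives, DESeq2, called it lower (adjusted p = 0.025).

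SNHG16 had 68.1, 65.0 and 64.9 CPM with inhibitor, against 57.1, 63.0 and 58.9 CPM with DMSO. It was the one RNA of the 10 with a positive value here (log2 fold change 0.13, SE 0.05, adjusted p = 0.19). SNHG6 had a log2 fold change of -0.14 (SE 0.06, adjusted p = 0.23). NEAT1 had 309, 222 and 288 CPM with inhibitor, against 376, 221 and 335 CPM with DMSO, where DMSO replicate 2, which stands apart, was the low one. Its log2 fold change was -0.20 (SE 0.15, adjusted p = 0.49), without DMSO replicate 2 it was -0.41 (adjusted p = 0.026), without DMSO replicate 1 it was -0.04 (adjusted p = 0.92) and without the unnumbered inhibitor library it was -0.07 (adjusted p = 0.86).

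The number of calls fell to 3 without DMSO replicate 3 and without inhibitor replicate 3. The authors' deposited tables call 5 of the 10 RNAs in the knockout comparison, SNHG1 being added to the 4 above, and 6 in the inhibitor comparison, where SNHG5 and GAS5 are added and MALAT1 is not called.

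The difference between the comparisons, knockout minus inhibitor, was tested as an interaction over all 12 libraries (19075 genes, of which 3.2% were called lower and 1.9% higher). MALAT1 alone of the 10 passed, with a log2 difference of 0.62 (SE 0.15, 95% interval 0.32 to 0.93, adjusted p = 0.016). Unadjusted p was under 0.05 for 3 of the 10, and the share of all genes at that level was not computed. ZFAS1 followed with 0.31 (SE 0.12, adjusted p = 0.15; without ALDH1B1 replicate 3 it was 0.44 and passed, adjusted p = 0.021) and SNHG16 with -0.18 (SE 0.08, adjusted p = 0.20). SNHG8, called in both comparisons, had a difference of -0.09 with a 95% interval of -0.29 to 0.11, and SNHG12, also called in both, had 0.11 with an interval of -0.12 to 0.34. DESeq2 passed none of the 10, with MALAT1 at 0.63 (adjusted p = 0.054), and without ALDH1B1 replicate 1 MALAT1 was at 0.57 and did not pass in edgeR (adjusted p = 0.060).

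**Figure D3:**
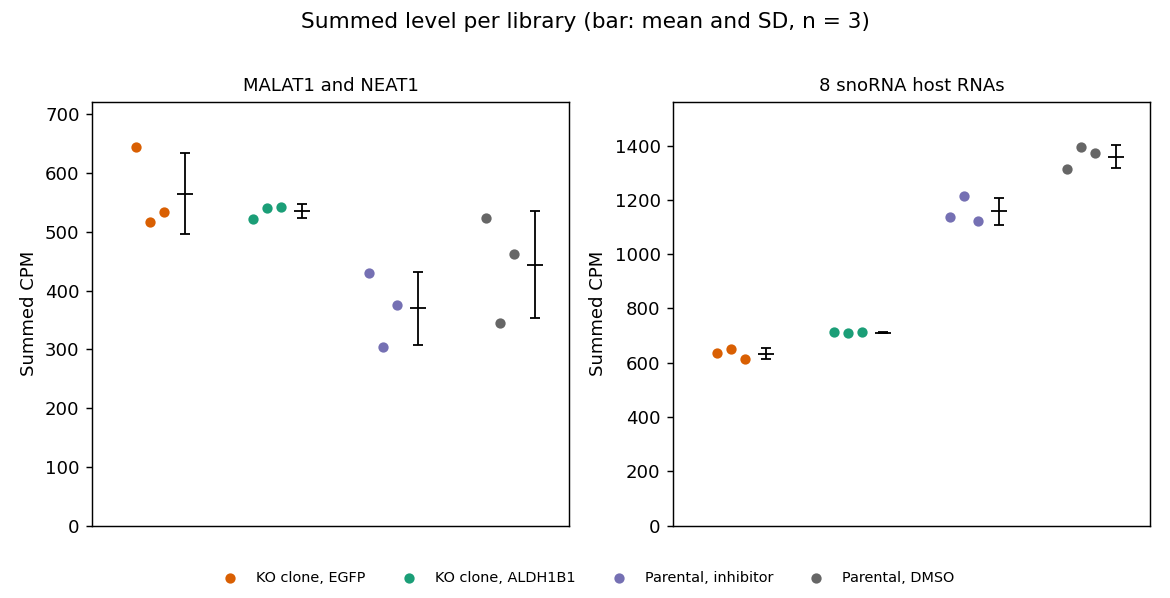
Summed CPM of MALAT1 and NEAT1 (left panel) and of the 8 snoRNA hosts (right panel), 1 point per library, with the EGFP clone, the ALDH1B1 clone, inhibitor and DMSO from left to right; bars give mean and SD (n = 3), and both axes start at 0. The summed hosts lie at 613 to 651 CPM in EGFP, 709 to 712 in ALDH1B1, 1124 to 1215 with inhibitor and 1313 to 1395 with DMSO libraries.

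In the plot of summed levels the clone groups stood apart from the line for the hosts and overlapped it for the nuclear RNAs. The 8 hosts summed to 613 to 651 CPM in the EGFP clone and 709 to 712 CPM in the ALDH1B1 clone, against 1313 to 1395 CPM in the parental line with DMSO. MALAT1 and NEAT1 together summed to 517 to 645 CPM with EGFP and 523 to 543 CPM with ALDH1B1, against 345 to 524 CPM with DMSO, so the lowest EGFP and ALDH1B1 libraries lay just below the highest DMSO library. The epithelial and fibroblast markers above also differed between clone and line, and their part in these results was not tested. In bulk RNA, fewer cells of a type and less RNA per cell cannot be told apart.

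In both clone groups 7 host RNAs were lower than in DMSO, NEAT1 was higher, and MALAT1 and GAS5 did not pass. For the EGFP clone 37.7% of the 19075 genes were called lower and 37.8% higher, and for the ALDH1B1 clone 37.4% were called lower and 38% higher, so a call by itself says little here. The 2 contrasts share the DMSO libraries. The median log2 fold change of the hosts was -1.21 for the EGFP clone and -0.996 for the ALDH1B1 clone, against -0.02 and -0.01 for all genes.

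SNHG1 was 5.95-fold lower in the EGFP clone and 5.27-fold lower in the ALDH1B1 clone than in DMSO (log2 fold changes -2.57 and -2.40, SE 0.06 each). SNHG8 was 5.11-fold and 4.06-fold lower (log2 fold changes -2.35 and -2.02, SE 0.07 each). SNHG12 had log2 fold changes of -1.80 and -1.49 (SE 0.08 each), and ZFAS1 -1.46 and -1.23 (SE 0.09 each). For these hosts every clone library was below every DMSO library.

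The other hosts moved less. SNHG6 had log2 fold changes of -0.95 in the EGFP clone and -0.76 in the ALDH1B1 clone (SE 0.06 each), SNHG5 had -0.60 and -0.34 (SE 0.08 each) and SNHG16 -0.57 and -0.53 (SE 0.06 each). GAS5, which holds the most snoRNAs of the 8, had -0.03 and 0.01 (SE 0.05 each, adjusted p = 0.53 and 0.87), with 95% intervals of -0.13 to 0.06 and -0.09 to 0.11.

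NEAT1 had log2 fold changes of 0.41 in the EGFP clone and 0.36 in the ALDH1B1 clone (SE 0.13 each, adjusted p = 0.0070 and 0.016). Without DMSO replicate 2 these were 0.21 and 0.16 and no longer passed (adjusted p = 0.067 and 0.15). DESeq2 passed neither (0.40 and 0.34, adjusted p = 0.068 and 0.12), and the EGFP value did not pass without EGFP replicate 1 (0.26, adjusted p = 0.090). MALAT1 had 0.20 and 0.04 (SE 0.10 each, adjusted p = 0.079 and 0.71). The EGFP value passed in 5 of 17 alternatives, among them the fits without EGFP replicate 2 (0.28, adjusted p = 0.018), without DMSO replicate 1 (0.28, adjusted p = 0.029) and without inhibitor replicate 1 (0.20, adjusted p = 0.026), and with the trend over length and GC content removed (0.29, adjusted p = 0.022).

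**Figure D4:**
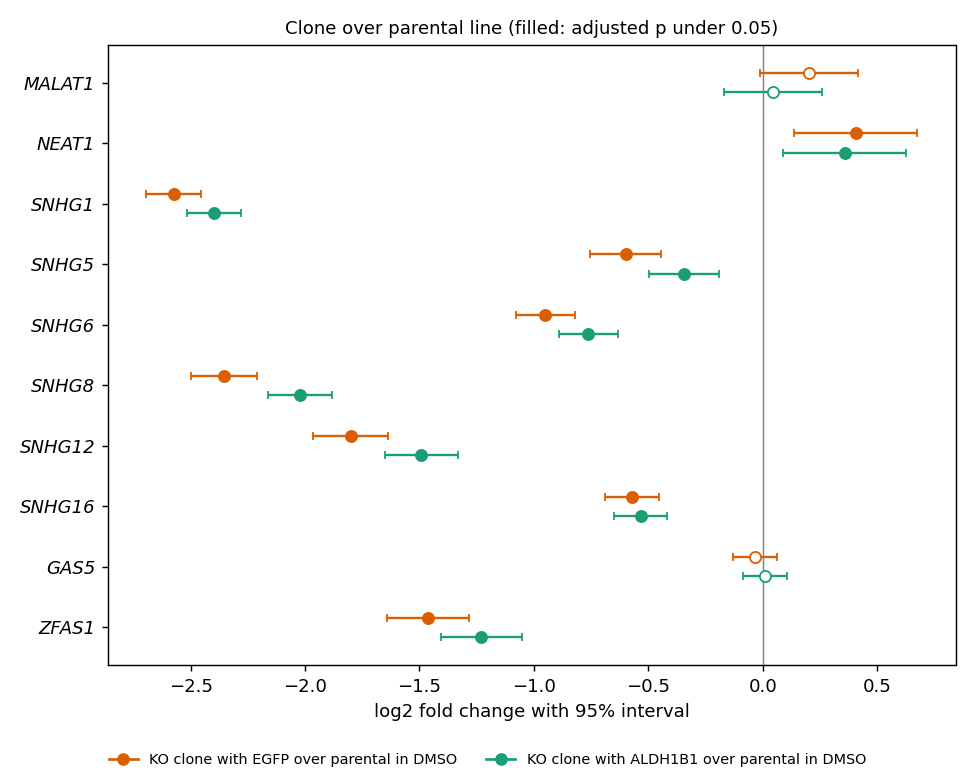
Log2 fold change with its 95% interval of the EGFP clone (orange) and the ALDH1B1 clone (green) over the parental line with DMSO; filled points have an adjusted p under 0.05. The values run from -2.57 for SNHG1 to 0.41 for NEAT1, and GAS5 and MALAT1 are unfilled.

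Other noncoding snoRNA hosts were counted in the same fits. This list and those below were chosen with earlier results of these data known, so the counts describe the listed genes only. Beside them stand the shares of all genes called lower, 9.22% in the knockout comparison and 2.1% in the inhibitor comparison. Of 17 tested in the knockout comparison 3 were lower, SNHG19 at -0.46 (SE 0.15, adjusted p = 0.042), SNHG17 at -0.26 (SE 0.06, adjusted p = 0.0084) and SNHG25, which stayed under 1 CPM, and the median of the 17 was -0.08. Of 15 tested in the inhibitor comparison 3 were lower, SNHG19 at -0.62 (adjusted p = 0.022), SNHG15 at -0.31 (adjusted p = 0.0065) and SNHG17 at -0.26 (adjusted p = 0.026), and the median of the 15 was -0.06. In the EGFP clone against DMSO 7 of 17 were lower and 4 higher, beside the 37.7% lower and 37.8% higher of all genes. SNHG17 averaged 30.6 CPM in EGFP and 36.9 CPM in ALDH1B1 libraries, and 102 CPM with inhibitor and 121 CPM with DMSO.

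Proteins that bind or build the cargo were read alongside. The shares of all genes were 9.22% lower and 8.36% higher in the knockout comparison, and 2.1% and 1.89% in the inhibitor comparison. Median log2 fold changes of the snoRNP genes were -0.15 and -0.03 there, against 0.01 and -0.002 for all genes. Those of the protein-coding hosts were -0.12 and -0.05. Of 18 genes for snoRNP core and assembly proteins, 8 were lower in EGFP than in ALDH1B1 libraries, led by NOP56, a C/D box core protein whose gene also hosts snoRNAs (-0.34, SE 0.04, adjusted p = 1.1e-04), GAR1, an H/ACA core protein (-0.31, adjusted p = 0.0065), and RUVBL1, an assembly ATPase (-0.31, adjusted p = 5.7e-04). With inhibitor 2 of 18 were lower, NOP58 (-0.22, adjusted p = 0.021) and NOP56 (-0.16, adjusted p = 0.044). Of 23 protein-coding snoRNA hosts 9 were lower and 1, EIF4A2, higher in the knockout comparison. In the inhibitor comparison TPT1 and NOP56 were lower, and EEF2 and HSPA8, a chaperone gene at 0.23 (adjusted p = 0.014), were higher.

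Partners of the nuclear RNAs gave the following counts. The shares of all genes called lower were 9.22% in the knockout comparison and 2.1% in the inhibitor comparison. Knockout medians of log2 fold change were -0.135 for paraspeckle, -0.08 for speckle and -0.24 for 3′ end processing genes, against 0.01 for all genes. Inhibitor medians were -0.02, -0.14 and -0.10, against -0.002. Among 17 gene rows for 16 paraspeckle proteins, 8 were lower in the knockout comparison, led by HNRNPH3 (-0.33, adjusted p = 9.5e-04), and 1 was lower with inhibitor, HNRNPH1 (-0.19, adjusted p = 0.030). Of 22 nuclear speckle protein genes 3 were lower in the knockout comparison, TRA2B (-0.20, adjusted p = 0.0039), TRA2A and SRSF4, and 4 were lower with inhibitor, SRSF6 (-0.22, adjusted p = 0.023), RBM25, BCLAF1 and SRSF7. Of 11 genes for RNase P subunits and other enzymes of tRNA-like 3′ end processing, 6 were lower in the knockout comparison, led by RPP38 (-0.38, adjusted p = 0.013). With inhibitor none of the 11 passed in edgeR or in DESeq2, and 3 had an unadjusted p under 0.05 in edgeR. Other long noncoding RNAs, not all of them nuclear, gave 13 gene rows, with LINC-PINT in more than 1 row and MEG3 not tested. Of these rows 1 was higher in the knockout comparison, NORAD (0.17, adjusted p = 0.0092). In the inhibitor comparison 1 was lower, KCNQ1OT1 (-0.58, adjusted p = 0.042). The medians of the 13 rows were 0.04 and -0.10.

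Genes of nonsense-mediated decay, the pathway that removes spliced host RNAs, were also counted. The shares of all genes called lower were 9.22% in the knockout comparison and 2.1% in the inhibitor comparison. Median log2 fold changes of the 14 factors were -0.14 and -0.02, against 0.01 and -0.002 for all genes. Those of the 7 sensitive mRNAs were -0.07 and -0.09. Of 14 factors 8 were lower in the knockout comparison, led by MAGOH (-0.34, adjusted p = 0.031), SMG9 (-0.27, adjusted p = 0.0012) and SMG1 (-0.26, adjusted p = 0.0026). With inhibitor none of the 14 passed in edgeR, where 3 had an unadjusted p under 0.05, while DESeq2 called 2 lower. Of 7 mRNAs known as sensitive to the pathway 2 were lower in both comparisons: UPP1, a uridine phosphorylase gene, at -0.31 with EGFP and -0.64 with inhibitor, and GADD45B, a stress gene, at -0.27 and -0.42.

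Several members share bases with another gene, and no source used here states the counting strand, so overlapping reads could not be assigned. ZFAS1 on chromosome 20 shares 42.9% of its exon bases with other genes, SNHG16 on chromosome 17 shares 30.6% and SNHG6 on chromosome 8 shares 29.3%, and their values are uncertain to that degree. MALAT1 and NEAT1 on chromosome 11 share 6.2% and 2.1%, GAS5 and SNHG12 on chromosome 1 share 1.2% and 0.2%, and SNHG1, SNHG5 and SNHG8 share none. The overlap partner of SNHG6, MCMDC2, was at 0.98 in the EGFP clone over DMSO (SE 0.31, adjusted p = 0.0073), while SNHG6 was at -0.95. Their levels were far apart: MCMDC2 averaged 1.36 CPM in the EGFP clone and 0.69 CPM in DMSO, and SNHG6 averaged 44.1 and 85.2 CPM.

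The genes that start head to head with a host were compared with it. SLC3A2, an amino acid transporter subunit gene that starts 188 nt from SNHG1, was at -0.81 in the EGFP clone over DMSO (SE 0.05, adjusted p = 8.8e-13), and at -0.02 with inhibitor (SE 0.04, adjusted p = 0.81). ZNFX1, which starts 248 nt from ZFAS1, was at 0.00 in the EGFP clone over DMSO (SE 0.07, adjusted p = 0.97) and at -0.21 with inhibitor (SE 0.08, adjusted p = 0.13). ZBTB37, 800 nt from the start of GAS5, did not pass in either clone contrast.

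The snoRNAs themselves were hardly counted. RefSeq places 34 snoRNA genes inside the 8 hosts: 11 in GAS5, 9 in SNHG1, 4 in SNHG12, 3 each in SNHG16 and ZFAS1, 2 in SNHG5 and 1 each in SNHG6 and SNHG8. Only 4 of the 34 are listed in the deposited tables, and the most counted, SNORD12B of ZFAS1, had 64 reads over the knockout clone libraries and 77 over the parental ones. Oligo(dT) selection keeps few such RNAs, so host levels here are no measure of snoRNA levels.

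Genes with the most similar profile were named by the smallest mean absolute difference in centred log2 CPM over the 12 libraries, among genes with a mean of at least 5 CPM. For MALAT1 these were CAPRIN2 (0.11), NABP1 (0.11) and CAPN10-DT (0.11). For NEAT1 they were TRIM52 (0.099), GIGYF1 (0.10) and FTX (0.11). For the mean of the 8 hosts they were CNDP2 (0.028), EIF1 (0.040) and PPCDC (0.043).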

How the data were processed

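Per the labels' protocols, oligo(dT) beads selected the RNA of the 12 SW480 libraries and an NEBNext Ultra II kit was used. The tools fastp, STAR and DESeq2 and the build hg38 come, without versions, from the submitters' processing notes. No source used here states the counting program, its strand setting or the annotation. The authors deposited raw read counts for each gene in each library, per the file headers. Their deposited log2 fold changes and p-values are quoted only as the authors' own. All 33331 genes match the span and exon length of GENCODE 29. The 24 columns of other units (normalized values and FPKM) stayed out. Names matched columns to groups; 1 inhibitor column carries no number and served as a replicate of its group.

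The test was edgeR 4.0.16 run in R 4.3.3 (TMM, filterByExpr with a minimum count of 10, quasi-likelihood F test, Benjamini-Hochberg adjustment over all genes tested, threshold 0.05). EGFP was set over ALDH1B1, and inhibitor over DMSO, each within its own 6 libraries; the interaction and the clone contrasts used 12 libraries and genes in both tables. CPM used TMM-scaled library totals of the 12-library fit. Standard errors come from the F statistic. The members and the gene lists were chosen with earlier results of these data known. Genes named by rule are the 10 members, ALDH1B1, the 3 largest calls of a list at 5 CPM or more and the 3 most similar profiles. The rule also takes in overlapping or head-to-head neighbours and hosted snoRNAs. Not all that it allows are printed, and the marker genes are named beside it. SNHG25, KCNQ1OT1, EIF4A2, EEF2 and SRSF7 fall outside the rule and are named to complete a count. Alternatives were other size factors, no filter, DESeq2 1.42.0, a replicate block, 1 fit over 12 libraries, a length and GC trend offset (mgcv 1.9.3) and each library left out.

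The edgeR step was tested on simulated data with known changes. A first version drew the changed genes from all genes past the filter and missed its own recovery mark, the misses being almost all in genes under 5 CPM. The draw was then limited to genes of at least 5 CPM, where all members lie, and that version passed. The recovery mark was set for a larger change than those called among the members in the knockout and inhibitor comparisons. Those ran from 1.13-fold lower for SNHG6 to 1.47-fold lower for ZFAS1. The pass does not speak for genes below 5 CPM, nor for recovery of changes of that size.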

Additional observations from a re-analysis of the deposited data

Results flagged for a closer look

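MALAT1 differed between the comparisons. Its log2 fold change was 0.17 for EGFP over ALDH1B1 in the clone and -0.48 for inhibitor over DMSO in the parental line, and the interaction over 12 libraries was 0.621 (edgeR, adjusted p = 0.016). Over 17 alternatives the difference ran between 0.52 and 0.81, with adjusted p from 5.2e-04 to 0.060, and 2 of them did not pass.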

How the results depend on the processing

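Of 750 recomputed values for single RNAs, 678 kept their direction and side of the threshold, 26 lost the call, 24 gained one and 22 changed sign; all sign changes were in values that had not passed. The cause was not tested. With each library left out in turn, the number of the 10 RNAs called ran between 0 and 5 in the knockout comparison (4 with all libraries), between 3 and 6 in the inhibitor comparison (5) and between 0 and 2 for the difference (1). In edgeR, 7 RNAs kept an unadjusted p under 0.05 where the knockout count was 0, and 1 did where that of the difference was 0. Without a filter the knockout count was 7, and in DESeq2 that of the difference was 0, with 3 at an unadjusted p under 0.05. The share of all genes at that unadjusted level was not computed in these fits. In the clone contrasts every alternative gave 7 to 9 calls.

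GAS5 in the ALDH1B1 clone over DMSO was -0.008 in DESeq2, -0.010 with the trend removed, -0.026 without a filter and -0.009 with other size factors; with a library left out, it ran between -0.022 and 0.041. With the trend removed GAS5 was 0.002 in the EGFP clone over DMSO and 0.019 in the knockout comparison. With a library left out, MALAT1 in the ALDH1B1 clone over DMSO ran between -0.028 and 0.121, NEAT1 in the knockout comparison between -0.067 and 0.128, and the difference between comparisons between -0.103 and 0.088 for SNHG5 and between -0.128 and 0.013 for SNHG6.

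Replicate numbers did not pair the samples: deviations of same-numbered libraries correlated between -0.051 and 0.011. With the replicate block, which leaves out the unnumbered inhibitor library, 6 RNAs were called in the knockout and 6 in the inhibitor comparison, and the difference was 0.062 for SNHG5 and 0.007 for SNHG6. Counts of all genes called in the knockout comparison ran from 1371 to 4049 over the alternatives, against 3059, and in the inhibitor comparison from 171 to 1402, against 712. The lowest count of any of the 10 RNAs in a library was 405 reads, for SNHG12.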
